A study of Gallus gallus with 6 samples.

Results

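The ubiquitin conjugating enzymes and the deubiquitinases of cultured chicken primordial germ cells (PGC) were compared with those of cultured chicken embryonic fibroblasts (CEF). Members were all genes whose single annotated symbol begins with UBE2, USP and a digit, UCHL or OTUD, without UBE2C and UBE2R2L. This gave 73 of 13009 genes, 23 of them conjugating enzymes and 50 with a deubiquitinase symbol (42 USP, 3 UCHL and 5 OTUD), each represented by the brightest of its probe sets (mean of all 6 arrays). For the choice of genes the rule used symbols and no measured value, but it was set with earlier results of these data known. USP6NL was kept by the symbol rule, but it is a GTPase-activating protein and not a deubiquitinase.

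PGC give rise to eggs and sperm, and had been taken from the blood of chicken embryos at day 2.5. Each replicate pooled 20 embryos, and the culture medium was knockout DMEM supplemented with human bFGF, a fibroblast growth factor, at 10 ng/ml. CEF are connective-tissue cells grown from the bodies of embryos at day 6.5 after removal of internal organs and limbs. They were kept in DMEM to which 10% fetal bovine serum had been added, from 5 pooled embryos for each replicate, until passage 2. RNA came from 1500000 PGC and 6000000 CEF per replicate, and 5 µg was labelled for each Affymetrix Chicken Genome array. Each cell type had 3 arrays labelled as biological replicates, and cell type, embryonic age and medium changed together. No treatment, allele or strain is named in the labels. All 9 measured PGC markers, DAZL and DDX4 among them, were higher in PGC and 11 of 12 fibroblast markers in CEF. POSTN, LUM, DCN, TWIST1, S100A6 and the uncalled PDGFRA lay below background in PGC, as did DAZL, DDX4, KIT and DMRT1 in CEF. Of 12 measured leukocyte markers 8 were higher in CEF and 1 in PGC, with a summed level (log2) of 6.66 to 6.73 on the PGC arrays and 8.21 to 9.42 on the CEF arrays, and their part in the results was not tested. In RNA from whole cultures, fewer cells with a transcript and less of it per cell cannot be told apart. CEF arrays were more variable, with a median SD over probe sets of 0.0953 in PGC and 0.203 in CEF.

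Ubiquitin is a small protein that is attached to other proteins to mark them for breakdown by the proteasome or to change their activity and place in the cell. An activating enzyme (E1) passes ubiquitin to a conjugating enzyme (E2), which works with a ligase (E3) to put it on the substrate, and deubiquitinases take it off again. The E2 sets, together with the ligase, which kind of ubiquitin chain is built. Deubiquitinases act on histones, DNA repair proteins, receptors and the proteasome's own substrates.

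Levels are deposited log2 expression values, and differences are PGC minus CEF on this scale. A gene was called where limma's Benjamini-Hochberg adjusted p over all probe sets was under 0.05 and the difference was at least 2-fold. Among the 73 members 20 calls pointed to PGC and 5 to CEF, and the other 48 members were not called. The background is high in this comparison, because 32.5% of all genes were called against 34.2% of the members. Higher in PGC were 27.4% of the members and 17.6% of all genes, and higher in CEF were 6.85% of the members and 14.9% of all genes. The median difference of the members was 0.24, and that of all genes was -0.05. Groups did not overlap for 54 members (74.0%), close to the 71.2% among all genes. Almost all members were detected, 70 of the 73 (95.9%) above background on all 6 arrays, against 75.7% of all genes. Of the 11209 genes above background on the 3 arrays of at least one cell type, 37.3% were called, 20.5% higher in PGC and 16.8% higher in CEF, and 72 members were among them.

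The members' median difference depended on the scaling between arrays. It was 0.24 as deposited, 1.23 after spike-in scaling and 0.12 when arrays were centred at their 75th percentile. Each of these scalings shifts the differences of all probe sets by the same constant, so the members' lean relative to other genes did not change. For spike-in scaling, arrays were aligned on the bacterial spike-ins bioB, bioC and bioD (PGC minus CEF -0.99). On that scale 48 members (65.8%) were called higher in PGC and 2 (2.74%) in CEF, against 46.7% and 7.01% of all genes. The spike-ins did not move alike, since cre gave -0.12, and that scaling rests on the choice of bioB, bioC and bioD. Thus 80.0% of the members' calls lay in PGC on the deposited scale and 96.0% on the spike-in scale. Calls of all genes numbered 2294 in PGC and 1933 in CEF as deposited, and 6073 and 912 after spike-in scaling. The median difference of all probe sets was -0.09, 0.91 and -0.21 on the same scales. Under every scaling tried, no called member changed its direction. A called difference is at least 1 in size, more than either constant, so spike-in scaling and centring could not have turned a called member.

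**Figure D1:**
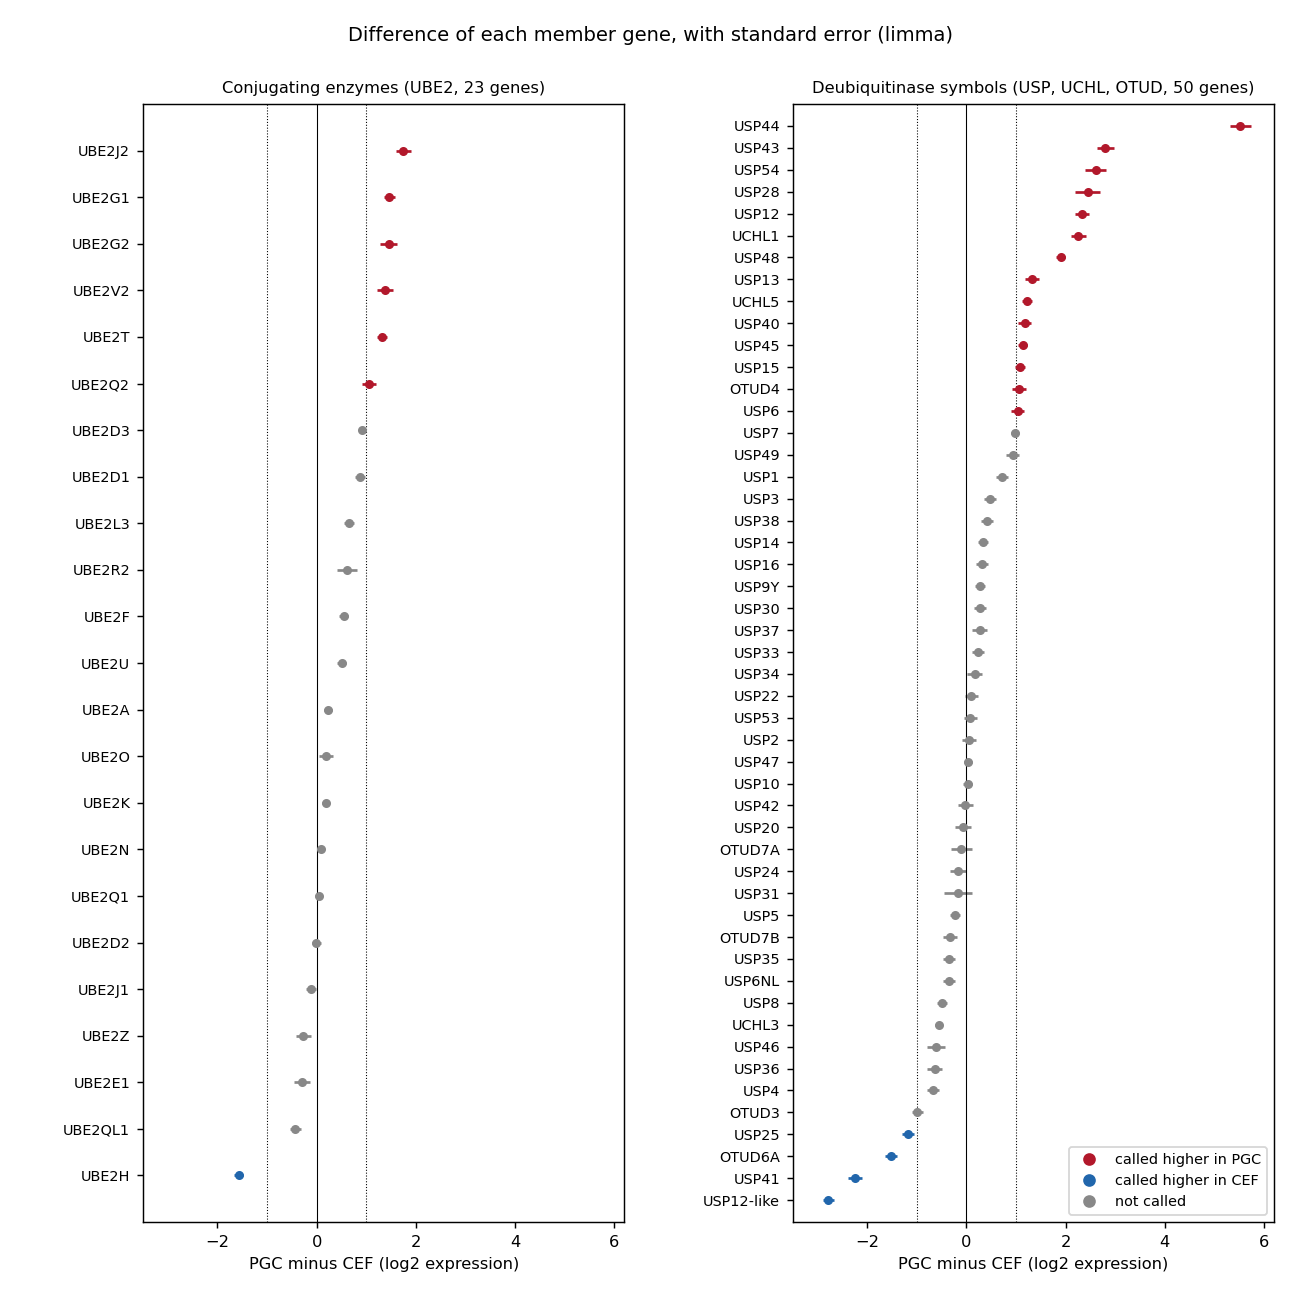
Difference between PGC and CEF (horizontal axis, log2 expression) for the 23 conjugating enzymes and the 50 genes with deubiquitinase symbols, with bars for limma's standard error and dotted lines at a 2-fold difference. USP44 stands apart at 5.52, the other called members lie between -2.78 and 2.80, and most members lie between the dotted lines.

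USP44 had the largest difference of all members. In human and mouse cells this deubiquitinase acts on histone H2B and on the spindle checkpoint. Its levels were 8.72, 8.82 and 8.70 on the PGC arrays, against 3.0, 2.93 and 3.75 on the CEF arrays. The PGC values lay within a range far narrower than the gap between the cell types, and the CEF values lay little above the mean CEF background of 1.97. The difference was 5.52 ± 0.21 (SE, 45.9-fold, adjusted p = 1.7e-07), and all 4 USP44 probe sets were called in the same direction, with differences of 5.52 to 6.04. Its relative USP49, also a histone H2B deubiquitinase in human cells, had a level of 6.49, 6.49 and 6.21 in PGC, against 5.56, 5.44 and 5.39 in CEF. This difference of 0.93 ± 0.13 was just under the 2-fold minimum, but came to 1.03 and was called without PGC replicate 3.

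USP43 and USP54, neither of which has a settled textbook role, followed USP44 in size. USP43 had levels of 6.80, 7.09 and 6.92 in PGC, against 3.83, 4.43 and 4.13 in CEF. USP54 had levels of 5.66, 5.42 and 5.67 in PGC, against 2.55, 3.38 and 2.99 in CEF. Neither gene's groups overlapped, and the differences were 2.80 ± 0.17 (6.98-fold, adjusted p = 2.5e-06) for USP43 and 2.61 ± 0.21 (6.10-fold, adjusted p = 1.4e-05) for USP54. Of the 4 USP43 probe sets, 2 were called, at 2.80 and 1.37. The others, above background on all 6 arrays, were uncalled at -0.01 and -0.35. As the mean of its 4 probe sets USP43 came to 0.95, under the minimum.

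USP28, a nuclear deubiquitinase that binds the DNA damage protein TP53BP1 and stabilises MYC in human cells, was also higher in PGC. Its levels were 6.86, 6.89 and 6.85 on the PGC arrays, against 5.06, 4.34 and 3.88 on the CEF arrays. The PGC arrays were nearly equal while the CEF arrays spread over more than a 2-fold range, and the difference was 2.44 ± 0.26 (5.43-fold, adjusted p = 7.1e-05). USP12, which removes ubiquitin from histones and from signalling proteins together with WDR48 and WDR20, had levels of 4.42, 4.42 and 4.66 in PGC, against 2.16, 2.09 and 2.27 in CEF. The CEF values lay just above background, and the difference was 2.33 ± 0.14 (5.01-fold, adjusted p = 2.25e-06). WDR48, the shared partner of USP1, USP12 and USP46, was not called (0.29 ± 0.12).

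Among the other deubiquitinases of chromatin and DNA repair, USP48, which acts on histone H2A in human cells, had levels of 8.97, 8.95 and 8.97 in PGC, against 7.14, 7.07 and 6.99 in CEF, a difference of 1.90 ± 0.08 (3.72-fold, adjusted p = 3.1e-07). Its other probe set went the opposite way at -0.93 ± 0.11 (adjusted p = 0.00014), so the direction of USP48 holds only for the brighter probe set, and their mean was 0.48. USP45, which acts on the repair protein ERCC1, was higher in PGC by 1.13 ± 0.09, or 0.94 and uncalled when its probe sets were averaged. USP7, which controls p53 through MDM2, reached 0.98 ± 0.09 and missed the 2-fold minimum, but came to 1.03 and was called without CEF replicate 3. USP1, which cleans PCNA and FANCD2, differed by 0.72 ± 0.12 (adjusted p = 0.0010), and the histone H2A deubiquitinases USP3 and USP16 by 0.47 and 0.32. USP36 (-0.64), a nucleolar enzyme, and USP46 (-0.61), a relative of USP12, lay on the CEF side. The dimmer probe set of USP36 went the opposite way at 0.53, uncalled, and the mean of its probe sets was -0.05. USP46, read from 1 probe set, had low mean levels of 2.17 in PGC and 2.78 in CEF. USP42 (-0.02) and USP47 (0.03), the last of base excision repair, were near 0 by their brightest probe sets. Dimmer probe sets were called higher in PGC, at 2.34 for USP42 and at 1.42 and 1.52 for USP47. The remaining ones were uncalled, at 0.08 for USP42 and -0.40 to 0.29 for USP47. USP22, the deubiquitinase of the SAGA coactivator complex, was close to even (0.10 ± 0.14), and its partner in that module ENY2 differed by 0.55 ± 0.10. Of the 16 members listed under chromatin and DNA repair, 5 were higher in PGC, 1 in CEF (USP12-like) and 10 were not called. Of all genes, 17.6% were higher in PGC and 14.9% in CEF.

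**Figure D2:**
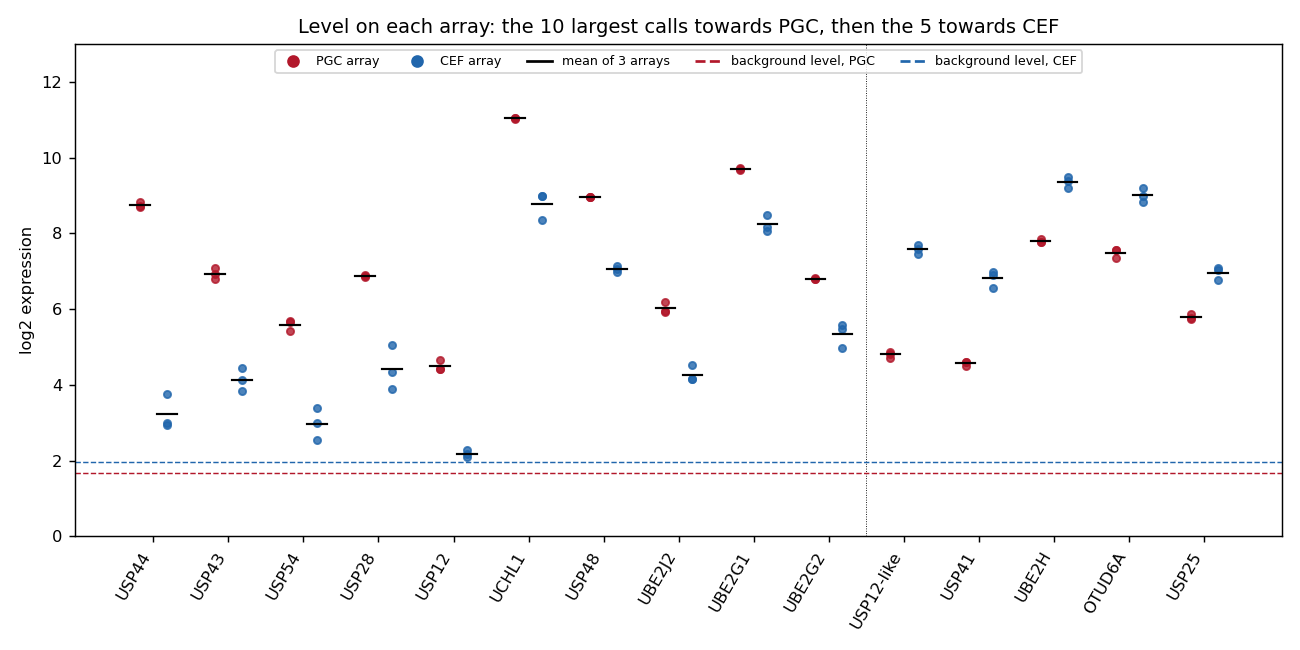
Level on each array (vertical axis, log2 expression) for the 10 members with the largest calls towards PGC and the 5 called towards CEF, with PGC arrays left of CEF arrays, a bar for the mean of 3 arrays and dashed lines for the mean background level of each cell type. The groups do not overlap for any of these 15 genes, and the CEF points of USP12 lie just above the background line.

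The UCHL enzymes, small ubiquitin hydrolases, differed from each other in how they compared between PGC and CEF. UCHL1, abundant in neurons and in the male germ line of mammals, was among the 3 brightest members. It had levels of 11.03, 11.04 and 11.05 in PGC, against 8.99, 9.0 and 8.35 in CEF. It was high in both cell types and lowest in CEF replicate 3, and the difference was 2.26 ± 0.16 (4.79-fold, adjusted p = 5.05e-06). Of 11 measured neural markers, 4 were also higher in PGC (ELAVL4, STMN2, NEFM and SYT1) and 0 in CEF, with 3 of them lower in PGC at an unadjusted p under 0.05 in limma. Their summed level (log2) was 10.02 to 10.17 on the PGC arrays and 6.84 to 7.14 on the CEF arrays, and its part in the UCHL1 result was not tested. UCHL5, bound to the proteasome through ADRM1 and to the INO80 chromatin remodeller, had levels of 9.07, 9.01 and 9.09 in PGC, against 7.95, 7.67 and 7.88 in CEF. It was higher in PGC by 1.22 ± 0.09 with both of its probe sets called, while ADRM1 was not called (-0.22 ± 0.09). UCHL3 had levels of 9.10, 8.99 and 8.99 in PGC, against 9.66, 9.51 and 9.57 in CEF. It differed the other way without reaching the 2-fold minimum (-0.56 ± 0.07, adjusted p = 0.00018), and turned to 0.44 after spike-in scaling.

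Of the 3 USP members listed under proteasome and free ubiquitin chains, USP13 was called. Its level averaged 3.45 (SD 0.10) in PGC and 2.13 (SD 0.11) in CEF, the second close to background, and the difference was 1.32 ± 0.13 (SE). USP5, which takes apart free chains, differed by -0.23 ± 0.10 by its brightest probe set and by 2.23 by its other, which was called. USP14, which trims chains at the proteasome, differed by 0.34 ± 0.10.

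Of the 23 USP members listed under cytoplasm, membrane and trafficking, 5 were higher in PGC, 2 in CEF and 16 were not called. The shares of all genes were 17.6% in PGC and 14.9% in CEF. This list also took in USP43 and USP54, without a settled role, USP41, of uncertain match, and USP6NL, which is not a deubiquitinase. Its counts are therefore not a result about enzymes of 1 place in the cell. Besides USP43 and USP54, those higher in PGC were USP40 (1.18 ± 0.13), USP15 (1.08 ± 0.10), which acts on SMAD signalling, and the gene annotated as USP6 (1.04 ± 0.13). The call of USP6 ended without CEF replicate 2 (0.98), CEF replicate 3 (0.99) or PGC replicate 1 (0.96) and after quantile normalization (0.94), although with all 6 arrays each of its 3 probe sets was called. USP15 came to 0.96 and USP6 to 0.91 with 75th-percentile centring. The dimmer probe sets of USP15 gave 0.06, which was not called, and 2.01, which was called. Uncalled members of this list had differences between -0.67 and 0.41. They included USP4 (-0.67), USP8 (-0.49), which sorts receptors at endosomes, and USP30 (0.27), of the mitochondrial outer membrane. With them stood USP9Y (0.27), a symbol of the annotation for a gene in a species without a Y chromosome. The others were USP38 (0.41), USP37 (0.27), USP33 (0.24), USP34 (0.17), USP10 (0.02), which binds the stress granule protein G3BP1, USP20 (-0.07), USP24 (-0.17) and USP6NL (-0.36). USP2 (0.05), USP31 (-0.18), USP35 (-0.35) and USP53 (0.08) had mean levels under 3 in both cell types, and USP35 lay below background on all PGC arrays.

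The members higher in CEF were led by USP12-like, a relative of USP12. Its levels were 4.88, 4.72 and 4.82 in PGC, against 7.70, 7.46 and 7.59 in CEF. The groups were far apart and tight, with a difference of -2.78 ± 0.12 (6.87-fold, adjusted p = 2.8e-07), while its dimmer probe set gave -0.96 and was not called. The gene annotated as USP41, a symbol whose match to the human gene is uncertain, had levels of 4.60, 4.50 and 4.60 in PGC, against 6.99, 6.56 and 6.91 in CEF. It differed by -2.25 ± 0.14 (4.76-fold, adjusted p = 3.1e-06). These were the only members still called in CEF after spike-in scaling, at -1.79 for USP12-like and -1.26 for USP41.

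OTUD6A, listed with the synonym OTUD6B in the RefSeq gene table, had levels of 7.57, 7.55 and 7.36 in PGC, against 9.20, 8.84 and 8.99 in CEF. It differed by -1.52 ± 0.11 (2.86-fold), or -0.53 and no longer called after spike-in scaling. USP25, a relative of USP28, had levels of 5.86, 5.77 and 5.73 in PGC, against 7.04, 6.77 and 7.09 in CEF. Its difference of -1.18 ± 0.12 was no longer called after spike-in scaling (-0.19) and as the mean of its 5 probe sets (-0.19). A dimmer USP25 probe set, above background on all 6 arrays, went the opposite way at 0.97 ± 0.18 (limma adjusted p = 0.0018). Of the other OTUD genes, OTUD4, linked to the repair of alkylated DNA, was higher in PGC (1.06 ± 0.14), or 0.91 and not called without CEF replicate 2, and 0.93 with 75th-percentile centring. OTUD3 just missed a call towards CEF (-0.99 ± 0.12). It was called without CEF replicate 2 (-1.0), CEF replicate 3 (-1.01) or PGC replicate 1 (-1.04), after quantile normalization (-1.09) and with 75th-percentile centring (-1.11), and stood at 0.0058 after spike-in scaling. The dimmer probe sets of OTUD3 gave -0.23 and 0.10, neither of them called, and the mean of all its probe sets was -0.37. OTUD7A and OTUD7B, of which OTUD7B cuts lysine-11 chains, differed by -0.10 and -0.34.

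Among the 23 conjugating enzymes, 6 were higher in PGC, 1 was higher in CEF and 16 were not called. For all genes the shares were 17.6% in PGC and 14.9% in CEF. The enzymes of the endoplasmic reticulum, which help to remove misfolded proteins, gave 3 of the 6. UBE2J2, anchored in that membrane, had levels of 6.18, 5.93 and 5.94 in PGC, against 4.52, 4.15 and 4.14 in CEF, a difference of 1.75 ± 0.15 (3.35-fold, adjusted p = 2.1e-05). UBE2G1, which also serves cullin-RING ligases, had levels of 9.72, 9.68 and 9.69 in PGC, against 8.48, 8.05 and 8.17 in CEF, a difference of 1.46 ± 0.11 with both probe sets called. UBE2G2 had levels of 6.83, 6.78 and 6.78 in PGC, against 5.59, 5.48 and 4.96 in CEF. It differed by 1.45 ± 0.17, or 0.46 and uncalled when its 5 probe sets were averaged, of which 2 lay below background on all arrays. The other enzymes of this list, UBE2J1 (-0.11 ± 0.10) and UBE2K (0.18 ± 0.07), were not called by their brightest probe sets. The second probe set of UBE2K, at 2.17, was called, as was the mean of both at 1.18.

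UBE2T, the conjugating enzyme of the Fanconi anaemia repair pathway, was higher in PGC by 1.31 ± 0.10. UBE2A, which marks PCNA and histone H2B, had levels of 8.33, 8.40 and 8.54 in PGC, against 8.23, 8.20 and 8.13 in CEF. Its groups did not overlap, but the difference was only 0.23 ± 0.08 (adjusted p = 0.049).

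UBE2N builds lysine-63 chains, which serve signalling and DNA repair rather than breakdown, and needs an inactive partner of the UBE2V family. It was among the brightest members, with levels of 10.00, 9.92 and 9.84 in PGC, against 9.85, 9.77 and 9.86 in CEF, and these overlapped (0.09 ± 0.06, adjusted p = 0.26). UBE2V2 had levels of 5.70, 5.72 and 5.51 in PGC, against 4.50, 4.06 and 4.23 in CEF. The partner thus differed by 1.38 ± 0.15 (2.60-fold, adjusted p = 9.1e-05) where the brightest probe set of the catalytic enzyme was nearly even. A dimmer UBE2N probe set was called higher in PGC at 2.14 ± 0.27, and the remaining ones were uncalled at -0.38 to 0.59. The contrast between the partners therefore does not hold for that dimmer UBE2N probe set.

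The UBE2D enzymes, which serve many different ligases, were bright and uncalled. UBE2D3 had levels of 9.99, 9.91 and 10.03 in PGC, against 9.0, 9.0 and 9.16 in CEF. UBE2D1 had levels of 8.38, 8.27 and 8.22 in PGC, against 7.52, 7.30 and 7.41 in CEF. UBE2D2 had levels of 8.27, 8.18 and 8.27 in PGC, against 8.34, 8.31 and 8.09 in CEF. UBE2D3 (0.92 ± 0.07) and UBE2D1 (0.88 ± 0.09) thus lay just under the 2-fold minimum without overlap of the groups, and UBE2D2 overlapped. UBE2L3, which serves HECT-type and parkin-like ligases, was the brightest member, with levels of 10.51, 10.44 and 10.52 in PGC, against 9.73, 9.71 and 10.10 in CEF. Its difference was 0.65 ± 0.10 (adjusted p = 0.00070).

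UBE2H, which works with the CTLH ligase complex, was the one conjugating enzyme called in CEF. It had levels of 7.84, 7.76 and 7.77 in PGC, against 9.39, 9.50 and 9.19 in CEF, a difference of -1.57 ± 0.09 (2.97-fold, adjusted p = 2.0e-06). The call ended after spike-in scaling (-0.58) and with its 2 probe sets averaged (-0.85), the dimmer of which lay below background on all arrays. UBE2Q2 was higher in PGC by 1.05 ± 0.14, close to the minimum, and its call ended without CEF replicate 2 (0.98), as the mean of its probe sets (0.58), after quantile normalization (0.92) and with 75th-percentile centring (0.93). UBE2F, which carries NEDD8 in place of ubiquitin, differed by 0.54 ± 0.09, and the E1 subunits for NEDD8 were not called either (NAE1 0.82 ± 0.11, UBA3 -0.20 ± 0.08). The other uncalled conjugating enzymes were UBE2R2 (0.61), of the SCF ligases, the gene annotated as UBE2U (0.50), UBE2O (0.19), UBE2Q1 (0.04), UBE2Z (-0.27), UBE2E1 (-0.29) and UBE2QL1 (-0.43).

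Related members could be compared within arrays, where a shift of a whole array cancels out. In 21 pairs of paralogues from 36 members, listed from textbook families after the values had been seen, 2 pairs were called in opposite directions, 1 pair in the same direction and 11 pairs in one partner only, and in 7 pairs neither was called. The same-direction pair was UBE2G1 and UBE2G2, whose differences were 1.46 and 1.45. USP28 and USP25 were opposite by their brightest probe sets, with the call of USP25 lost after spike-in scaling (-0.19). The level of USP25 minus that of USP28 was -1.0, -1.13 and -1.12 on the PGC arrays, against 1.98, 2.43 and 3.20 on the CEF arrays, a shift of -3.62. USP12 and USP12-like were opposite too. On the PGC arrays USP12 minus USP12-like gave -0.45, -0.30 and -0.16, against -5.54, -5.38 and -5.32 on the CEF arrays, a shift of 5.11. Since probe sets differ in their efficiency, only the shift between cell types can be read and not the balance of the pair in one of them.

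Further pairs with one partner called were USP44 with USP49 (shift 4.59), USP43 with USP31 (-2.98 as USP31 minus USP43) and UCHL1 with UCHL3 (2.81). UBE2J1 minus UBE2J2 shifted by -1.86 and USP4 minus USP15 by -1.75, read from the brightest probe sets. These shifts were not tested, and no share among other pairs of genes was computed to set beside the counts.

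**Figure D3:**
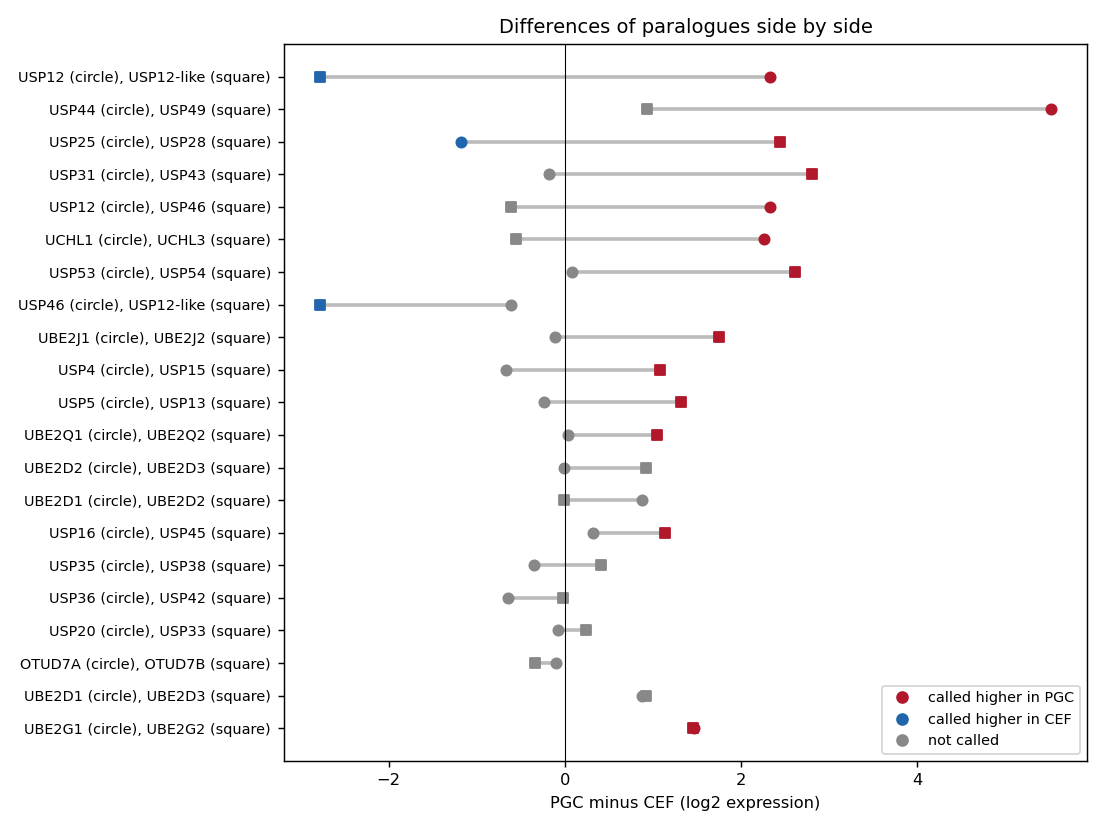
Difference between PGC and CEF (horizontal axis, log2 expression) for both partners of 21 pairs of paralogues, joined by a line and ordered by the distance between them. USP12 with USP12-like and USP25 with USP28 lie on opposite sides of 0 with both partners called, while UBE2G1 and UBE2G2 coincide.

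Probe sets of one gene can read different transcript ends, and 50 members had several, 185 probe sets in all 73 members. Only UBE2D3 had probe sets called in both directions, at 1.21 ± 0.13 and -1.46 ± 0.20. The second of these averaged 1.19 in PGC, below background, and 2.64 in CEF. Of 17 called members with several probe sets, 5 had all of them called the same way. No share among all genes was computed to set beside this count or that of members called in both directions. Among 33 uncalled members with several probe sets, 11 (33.3%) had another probe set called higher in PGC, against 17.7% of 4780 such genes in all, and 2 (6.06%) had one called higher in CEF, against 4.69%. The 11 were UBE2D3, UBE2K, UBE2N, USP5, USP6NL, USP7, USP24, USP30, USP34, USP42 and USP47. The 2 were UBE2D3 and USP4, whose dimmer probe set gave -1.36 ± 0.23. These shares were not matched for the number of probe sets per gene. Some of the dimmer probe sets called in PGC varied widely among CEF replicates 1 to 3. The one of USP5 had levels of 2.80, 3.92 and 4.71 there, and one of USP47 had 1.87, 2.64 and 3.94. Others varied less, such as the one of UBE2D3 at 6.18, 5.84 and 6.10. The part of this spread in the shares was not tested. Of the 8 USP7 probe sets, 2 dimmer ones were called higher in PGC, at 2.88 and 1.65. Its other dimmer probe sets were uncalled at -0.34 to 0.27, and the mean of all USP7 probe sets was 0.56.

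**Figure D4:**
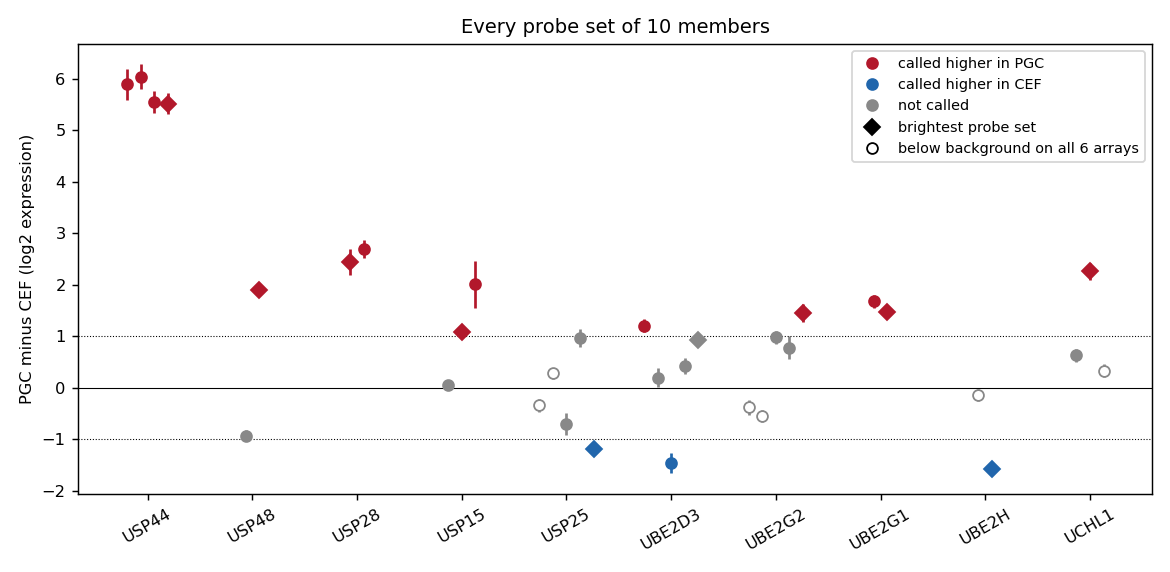
Difference between PGC and CEF (vertical axis, log2 expression, with limma's standard error) for every probe set of 10 members, with diamonds for the brightest probe set and open circles for probe sets below background on all 6 arrays. All 4 USP44 probe sets lie above 5, while those of USP48, USP25, UBE2D3 and UBE2G2 lie on both sides of 0.

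In the neighbouring steps of the pathway, ubiquitin and ubiquitin-like modifiers were higher in CEF for 3 of 13 measured genes and in PGC for 0 (4 at an unadjusted p under 0.05 in limma). The largest was MAP1LC3C, a modifier of autophagy, at -5.02 ± 0.16. Of 7 activating enzymes 1 was higher in PGC and 0 in CEF (2 at an unadjusted p under 0.05 in limma). Other conjugating enzymes were higher in PGC for 2 of 7 and in CEF for 0, also at that unadjusted p, with ATG10, of autophagy, at 2.98 ± 0.21. Other deubiquitinases were higher in PGC for 3 of 19 and in CEF for 1, led by ATXN3 (2.81 ± 0.34), which trims chains for the VCP segregase. At an unadjusted p under 0.05 in limma, 10 of these 19 were higher in PGC and 8 in CEF. Proteases of SUMO, NEDD8 and UFM1 were called for 2 of 8, the NEDD8 protease SENP8 in PGC (2.98 ± 0.35, above background on 2 of 3 CEF arrays) and the UFM1 protease UFSP2 in CEF (-2.62 ± 0.18). Partners and regulators of deubiquitinases were higher in PGC for 5 of 17 and in CEF for 0 (3 at an unadjusted p under 0.05 in limma), with a median difference of 0.55 in the list. Median differences of the other pathway lists ran from -0.27 for the modifiers to 0.45 for the proteases. Beside the counts of these short lists stand 17.6% of all genes higher in PGC and 14.9% higher in CEF.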

How the data were processed

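The deposited table holds 1 value for each of 38535 probe sets on 6 one-colour arrays, read here as log2 expression deposited after the authors' own normalization. MAS5 and GCOS are named in the submitters' processing notes, without versions. The steps of background correction are not stated there. The log base was read from the values, which ran from -0.13 to 12.52, so folds rest on base 2. Without 96 AFFX controls, 38439 probe sets were fitted with limma 3.58.1 in R 4.3.3 (lmFit, eBayes with an intensity trend, two-sided, cell type as the only term, 4 residual degrees of freedom), tested on simulated data. Calls needed a Benjamini-Hochberg adjusted p under 0.05 over all probe sets and an absolute log2 difference of at least 1. The number of arrays limits the precision. Of the probe sets, 27178 had 1 symbol, 177 several and 11180 none, and each of 13009 genes was read from its brightest probe set. Background was the 95th percentile of 687 probe sets without a chicken prefix or symbol (1.68 in PGC, 1.97 in CEF), a choice made after seeing the data. No member was brighter than the spike-in cre. Members, lists, tests and the rule for named genes were chosen with earlier results of these data known. That rule gives per-array values for the 10 largest calls in each direction, for the UBE2D, UBE2N with UBE2V2, UBE2A and UCHL sets and for the 3 brightest members. List genes are named at a call of at least 2 on the log2 scale or as partners of a member. Alternatives covered scaling, probe set choice, filter, variance prior, array weights, thresholds, a replicate block and leaving out each array.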

Additional observations from a re-analysis of the deposited data

How the results depend on the processing

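Members higher in PGC numbered 20 and members higher in CEF 5 with the deposited values, 6 and 1 among conjugating enzymes and 14 and 4 among deubiquitinase symbols. The intensity trend, array weights, the filter on dim probe sets (72 members passed) and adjustment over genes changed no call. Replicate numbers are shared by the cell types but did not pair the arrays (correlation of same-numbered deviations -0.036, -0.014 and 0.0088), and the fit with a replicate block again called 20 and 5 members and changed no other call, with 9498 probe sets called in all against 9469 without the block. Leaving out 1 array gave 17 to 21 members in PGC and 5 to 6 in CEF, 5 to 6 and 1 to 1 conjugating enzymes, and 12 to 15 and 4 to 5 deubiquitinases. Leaving out USP6NL, an alternative chosen after seeing the data, kept 14 and 4. The following choices moved a count by over 1.5 times. Spike-in scaling gave 48 members in PGC and 2 in CEF, 17 and 0 conjugating enzymes and 31 and 2 deubiquitinases. With no minimum fold there were 33 and 14 members, 13 and 2 conjugating enzymes, and 12 deubiquitinases in CEF, because smaller differences enter. Testing against a 2-fold difference (treat) left 9 members in PGC, 2 of them conjugating enzymes and 7 deubiquitinases. Only probe sets without the suffix s_at or x_at, chosen after seeing the data, gave 2 members in CEF among 66 that have one. Averaging all probe sets of a gene gave 0 conjugating enzymes in CEF. Shares of all genes to set beside such counts were computed only for the deposited values and for spike-in scaling. The call of 14 members (12 in PGC, 2 in CEF) was kept under the alternatives other than treat, which ended 12 calls. USP13, among the 14, has no probe set without the suffix s_at or x_at and so gave no value there. No called member reversed, which spike-in scaling and centring could not have brought about, but 27 uncalled ones did under some choice. Spike-in scaling, which moves all genes alike, turned OTUD3 (0.0058), OTUD7A (0.89), OTUD7B (0.65), UBE2D2 (0.99), UBE2E1 (0.70), UBE2J1 (0.88), UBE2QL1 (0.56), UBE2Z (0.72), UCHL3 (0.44), USP20 (0.92), USP24 (0.82), USP31 (0.81), USP35 (0.64), USP36 (0.35), USP4 (0.32), USP42 (0.97), USP46 (0.38), USP5 (0.76), USP6NL (0.64) and USP8 (0.50). Centring on the 75th percentile turned UBE2N (-0.033), UBE2Q1 (-0.084), USP10 (-0.10), USP2 (-0.076), USP22 (-0.022), USP47 (-0.093) and USP53 (-0.041), and quantile normalization USP10 (-0.045), USP22 (-0.022) and USP47 (-0.036). Averaging probe sets turned OTUD7A (0.13), UBE2J1 (0.11), USP10 (-0.032), USP24 (0.89), USP42 (0.80), USP5 (1.00), USP6NL (0.36) and USP8 (0.20), and array weights USP42 (0.035). Without 1 array the differences spanned 0 for OTUD7A (-0.33 to 0.065), UBE2D2 (-0.082 to 0.042), USP10 (-0.027 to 0.071), USP2 (-0.042 to 0.12), USP20 (-0.22 to 0.020), USP22 (-0.012 to 0.17), USP31 (-0.47 to 0.11), USP42 (-0.14 to 0.095), USP47 (-0.0067 to 0.088) and USP53 (-0.015 to 0.19). Beyond these constructions the cause of a change was not tested.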

Other observations

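UBE2R2L, placed on the W chromosome by the RefSeq gene table and left out of the members, had levels of 0.98, 0.97 and 0.80 on the PGC arrays, against 5.75, 0.86 and 0.91 on the CEF arrays. It was thus above background on CEF replicate 1 alone, and no group difference was called (-1.59 ± 1.13). Its relative UBE2R2, a conjugating enzyme of SCF ligases, had levels of 7.83, 7.83 and 7.73 in PGC, against 6.68, 7.42 and 7.44 in CEF, with CEF replicate 1 the lowest.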
